A study of Mus musculus with 15 samples.

Results

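The genes described here encode the proteins of the cytosolic ribosome, measured in mouse bone marrow derived macrophages. They were chosen by name among the protein-coding genes of the deposited count table: symbols made of Rpl or Rps and a number, together with Rpsa, Rplp0, Rplp1 and Rplp2, but not the Rps6k kinases or symbols with -ps. Rpl10l, with 0 counts in all libraries, and Rpl3l, with at most 10 counts in a library, fell under the minimum of 10 counts in at least 3 of 15 libraries. The rule left 84 of 25700 genes, 50 of them named for the large subunit and 34 for the small one. Of these, 77 are the standard subunit genes and 6 are paralogs of them (Rpl7l1, Rpl22l1, Rpl36al, Rpl39l, Rps27l and Rps27rt). Rps19bp1 entered by its name, but it encodes a protein that binds Rps19 and is no part of the ribosome. All 84 passed the filter on low counts and were tested.

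RNA was sequenced from 5 groups of 3 libraries. The macrophages received heme-albumin at a dose of 400 µM or of 200 µM, IL-4 (10 ng/ml), IFN-γ (10 ng/ml), or none of these as controls. Heme-albumin is hemin bound to human serum albumin and stands in the labels for macrophages resembling those that engulf red blood cells, while IFN-γ and IL-4 stand for the M1 and M2 states. All cells, controls included, were grown from the marrow of mice aged 8 to 10 weeks over 7 days with M-CSF (10 ng/ml); genotype and treatment time are not given in the sources used here. Nothing in the labels says that replicates came from separate animals or cultures, so p-values measure only the spread between these libraries. Column names carry a date per replicate number, whose meaning is not stated, and the main tests leave it out. Library totals were 8427352 to 28587416 counts. Summed macrophage markers (8 of 8 detected) were at 41883 to 51993 CPM (depth-scaled counts) with heme-albumin at 400 µM, 46716 to 55466 at 200 µM, 14279 to 20374 with IL-4 and 12864 to 26406 with IFN-γ, against 33068 to 38758 CPM in controls. Neutrophil markers summed to at most 55.3 CPM in any library, and dendritic cell markers to 26.6 to 59.5 CPM with IFN-γ, against at most 0.215 CPM in controls. Stromal and endothelial markers (3 of 3 detected) summed to 2.7 to 8.33 CPM with IL-4 and 6.68 to 14.7 with IFN-γ, against 0.484 to 0.645 CPM in controls, and T and NK cell markers to 1.29 to 1.91 CPM with IL-4, against at most 0.064 CPM in controls. Single macrophage markers did not all follow their sum. Against control at 400 µM, 0 of the 8 were higher and 2 lower at an adjusted p under 0.05 (edgeR, as below). Their median log2 fold change was -0.34. At 200 µM, 0 were higher and 1 lower (median -0.28). IL-4 gave 0 higher and 3 lower (-0.51), IFN-γ 2 higher and 3 lower (-0.05). Only 1 gene each of the dendritic, stromal and endothelial, and T and NK lists passed the filter on low counts. The part of these markers in the results was not tested. Replicate 2 of heme-albumin 400 µM and replicate 3 of IFN-γ stood apart from their groups: their counts differed from those of the other replicates with chi-square over degrees of freedom at 49.0 to 62.4 and 130 to 135, against 7.12 to 44.7 for the other pairs.

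Each ribosome holds 1 copy of most of these proteins, and cells make them in near-equal amounts and in step with growth. Their mRNAs begin with a tract of pyrimidines, the terminal oligopyrimidine or TOP motif, through which the kinase mTORC1 and the RNA-binding protein Larp1 control how strongly they are translated. Their output is therefore set to a large degree after transcription, and mRNA levels show only a part of it. Some members have second roles: Rpl5 and Rpl11 bind the p53 inhibitor Mdm2 when ribosome assembly fails, and in human monocytic cells RPL13A leaves the ribosome after IFN-γ and silences the translation of inflammatory mRNAs.

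Runs of pyrimidines were looked for in the start regions of the members that the results below turn on. Such a run near the annotated start is not by itself a TOP motif. RefSeq (GRCm38.p6) gave a promoter entry for 64 of the 84 members. A run of at least 7 C or T bases near the annotated start (searched from 10 bases before it) stood in 32 of the 64 (50%), against 19.3% of 27025 genes with an entry. The ETS-factor motif CCGGAAG stood on either strand of the 300-base promoter in 40.6% of members and 9.93% of all genes. The SP1 motif GGGCGG was present in 62.5% and 38.2%, and TATAAA in 10.9% and 15.7%; no 2 of these 3 motifs contain each other, and a match is a description of the sequence only. The windows below run from 40 bases before to 20 bases from the start, 5′ to 3′ on the gene's strand, with the run in capitals. They lie at chr3:90213629-90213688 (minus strand, Rps27), chr7:109519155-109519214 (plus, Rpl27a), chr7:141447611-141447670 (plus, Rplp2), chr7:45128726-45128785 (minus, Rpl13a), chr7:118116128-118116187 (minus, Rps15a) and chr3:28805468-28805527 (plus, Rpl22l1). The last pair, Rpsa at chr9:120127726-120127785 (plus) and Rpl7l1 at chr17:46782637-46782696 (minus), has no run of 7 in the stretch searched and is shown for contrast. Rps20, Rplp1 and Rpl36 had no entry.
Rps27: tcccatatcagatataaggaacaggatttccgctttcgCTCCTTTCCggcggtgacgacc
Rpl27a: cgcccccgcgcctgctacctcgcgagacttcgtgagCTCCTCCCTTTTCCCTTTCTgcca
Rplp2: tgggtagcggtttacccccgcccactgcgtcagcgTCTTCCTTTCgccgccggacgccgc
Rpl13a: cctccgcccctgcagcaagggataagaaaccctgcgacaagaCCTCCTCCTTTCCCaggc
Rps15a: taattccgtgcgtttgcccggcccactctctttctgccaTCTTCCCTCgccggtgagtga
Rpl22l1: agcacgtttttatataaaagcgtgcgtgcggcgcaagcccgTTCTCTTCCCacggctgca
Rpsa: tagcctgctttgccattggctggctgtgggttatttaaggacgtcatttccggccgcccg
Rpl7l1: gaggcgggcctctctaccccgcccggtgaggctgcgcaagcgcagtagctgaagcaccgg

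The members took a small part of each library, 2.33% to 3.20% of its counts. Their summed counts were 2.60 ± 0.22% of all counts with heme-albumin at 400 µM, 2.78 ± 0.11% at 200 µM, 2.96 ± 0.13% with IL-4 and 2.79 ± 0.44% with IFN-γ, against 2.78 ± 0.15% in controls (SD, n = 3 each). Every treated group overlapped the controls. Exact two-sided permutation tests against control gave p = 0.4, 0.9, 0.2 and 1 in that order, and p = 0.3 for 400 against 200 µM, where 0.1 is the smallest p that 3 against 3 allows. Paired by replicate number, the share was higher with IL-4 than in control in 3 of 3 pairs and lower at 400 than at 200 µM in 3 of 3 pairs, each with an exact sign-flip p of 0.25, the smallest that 3 pairs allow. The spread was widest with IFN-γ, where replicate 3 had 2.33% and replicate 2 had 3.20%. Without the 10 most abundant genes in the total, the share was 3.17 ± 0.18% at 400 µM, 3.37 ± 0.12% at 200 µM, 3.38 ± 0.12% with IL-4 and 3.09 ± 0.44% with IFN-γ, against 3.13 ± 0.17% in controls (exact p = 0.7, 0.2, 0.2 and 0.9). The difference from control thus turned from -0.18 to 0.04 percentage points at 400 µM and from 0.01 to -0.04 with IFN-γ. At 200 µM it went from -0.002 to 0.23 percentage points. The 10 genes were picked in each library, so they can differ between libraries. No member was among the 10 most abundant genes of any library. These are bulk samples, so fewer cells of a type and less RNA per cell cannot be told apart. Among members, mean levels per kilobase of annotated transcript ran from 0.742 CPM for Rpl39l and 10.2 for Rps27rt, the lowest, to 1028 for Rplp1 and 1101 for Rps29, the highest.

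**Figure D1:**
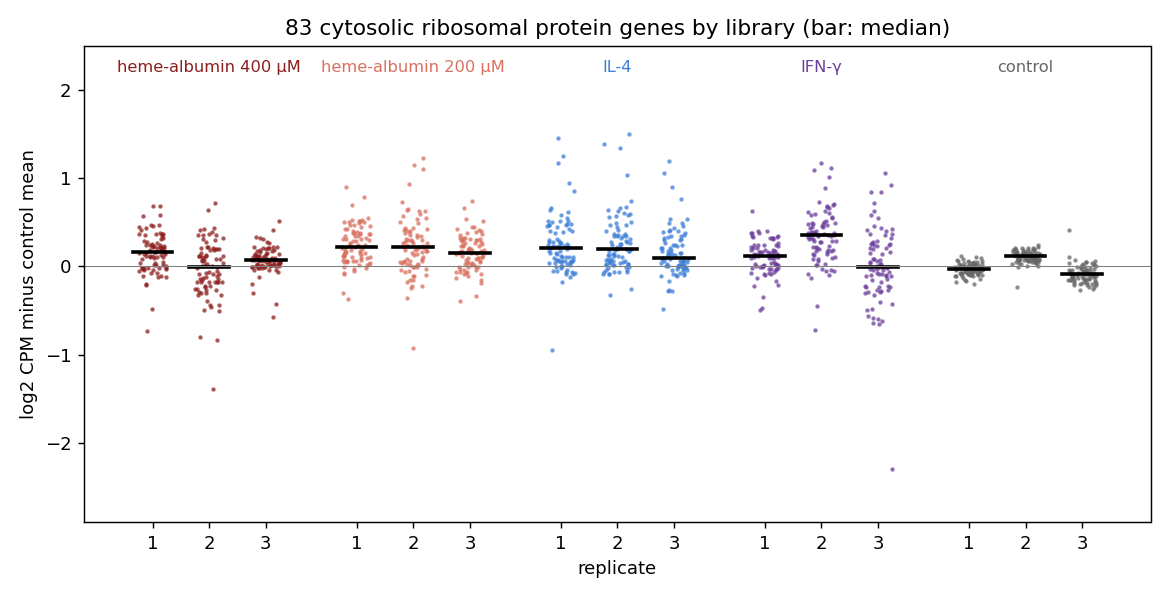
Each point is 1 of 83 members (Rpl39l, near 0 counts, is left out), plotted as log2 CPM minus the mean of the 3 controls, and black bars are medians. Medians over all 84 members span -0.01 to 0.15 for heme-albumin 400 µM, 0.16 to 0.22 for 200 µM, 0.11 to 0.20 for IL-4 and 0.00 to 0.35 for IFN-γ, against -0.09 to 0.12 in controls. Members scatter most in IFN-γ replicate 3 and heme-albumin 400 µM replicate 2.

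The members moved little and mostly upward. A member was called at an adjusted p under 0.05 (edgeR quasi-likelihood, Benjamini-Hochberg over all 11883 tested genes), and all adjusted p-values below are of this kind unless another setting is named. With heme-albumin at 400 µM, 4 of 84 members were called higher and 0 lower than in controls, where 14.7% of all tested genes were higher and 10.8% lower. At 200 µM, 17 were higher and 0 lower (all genes 14.0% higher and 9.48% lower). IL-4 raised 21 and lowered 0 (all genes 14.9% and 12.0%). IFN-γ raised 20 and lowered 2 (all genes 24.1% and 19.5%). In shares, members called higher made up 4.76%, 20.2%, 25% and 23.8% in these comparisons, so the share lay below that of all genes at 400 µM, near it with IFN-γ and above it at 200 µM and with IL-4. Calls in the lower direction were fewer than among all genes in each comparison. These 4 comparisons share the control libraries.

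The sizes were small beside those of other genes. The SD of the log2 fold change over members was 0.21 at 400 µM, 0.27 at 200 µM, 0.31 with IL-4 and 0.29 with IFN-γ, against 0.97, 0.89, 1.11 and 1.26 over all tested genes. The median log2 fold change of members stood 0.06, 0.18, 0.17 and 0.12 above that of all genes. Only Rpl36, Rplp1 and Rpl27a with IL-4 differed from control by 2-fold or more. Of the 84, 46 were called in none of the comparisons with control, 19 in 1, 12 in 2, 7 in 3 and 0 in all 4. The same breakdown over all tested genes is not given here, so this one is not read as particular to members. Both subunits took part: IL-4 raised 13 of 50 large and 8 of 34 small subunit members, and IFN-γ raised 13 and 7.

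The counts depended on scaling and on single libraries. Scaling to library totals alone put the median log2 fold change of all genes at -0.19, -0.18, -0.11 and -0.13 (400 µM, 200 µM, IL-4, IFN-γ) and gave 0 higher and 1 lower at either dose, 5 and 1 for IL-4 and 4 and 6 for IFN-γ. Upper-quartile scaling gave 9 higher and 5 lower with IFN-γ. The median of members relative to all genes hardly moved under these scalings. Leaving out control replicate 1 or 3 left 2 higher in either case at 400 µM, 2 in either case at 200 µM, 8 or 6 with IL-4 and 10 or 11 with IFN-γ. Without control replicate 2 the count at 200 µM was 11. Treated replicates mattered likewise: 200 µM fell to 4 without its replicate 1 and 2 without replicate 2, IL-4 to 8 and 10 without its replicates 1 and 2, and IFN-γ to 9 without replicate 2. Without both libraries that stood apart, 6, 35, 26 and 33 members were higher and 1, 1, 1 and 2 lower, in the order 400 µM, 200 µM, IL-4 and IFN-γ. The shares of all genes called under these alternatives are not given here, so the shifts in counts are not read as particular to members.

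**Figure D2:**
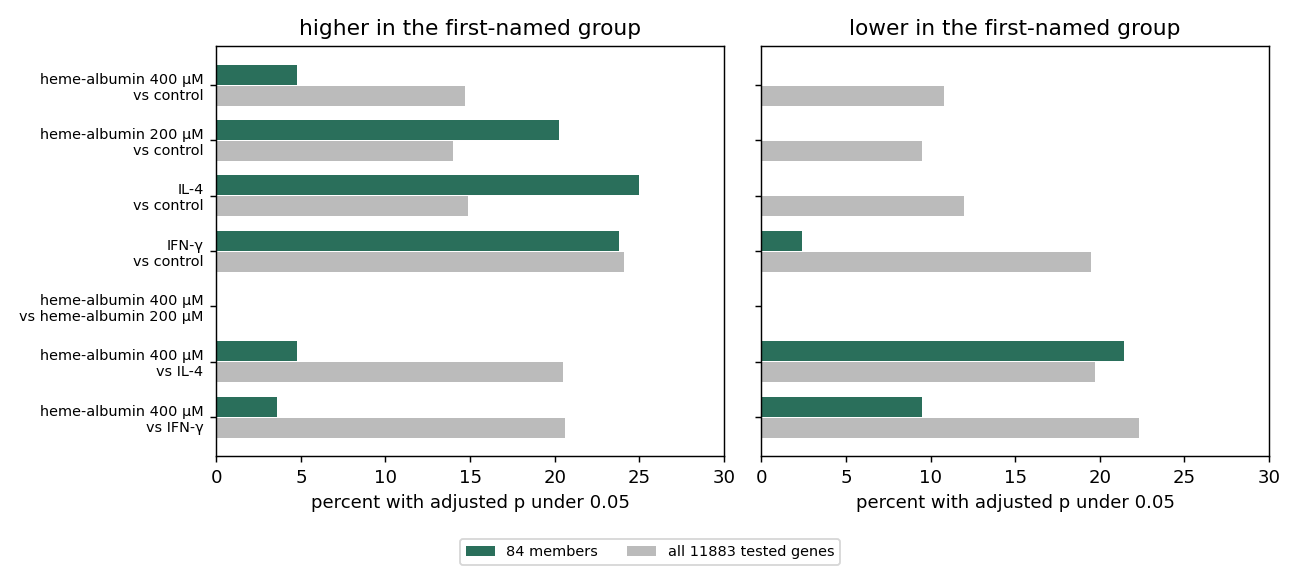
Bars give the percent of the 84 members (green) and of all 11883 tested genes (grey) with an adjusted p under 0.05, higher (left) or lower (right) in the first-named group of each comparison. Members called higher exceed all genes at heme-albumin 200 µM (20.2% against 14.0%) and IL-4 (25% against 14.9%), and 0 genes of either kind were called between the heme-albumin doses.

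With IFN-γ, the small subunit genes Rps20 and Rps27 had the lowest adjusted p of all members. Rps20, a protein of the small subunit, had 373, 485 and 431 CPM with IFN-γ and 237, 268 and 220 CPM in controls. Every IFN-γ library was above every control, and also above all 9 libraries of the other treatments, which reached at most 297 CPM. Its log2 fold change was 0.83 ± 0.11 (SE, adjusted p = 6.55e-05). Rps27, a zinc-finger protein of the small subunit, had 293, 373 and 371 CPM with IFN-γ and 226, 256 and 198 CPM in controls, again without overlap. It rose by 0.61 ± 0.12 (adjusted p = 0.000985). Both calls held under all alternatives run. Only 7.58% of the 50-base stretches of the annotated Rps20 transcript occur in transcripts of other genes. Of those of Rps27, 98.7% do, so the level of Rps27 is uncertain. The transcript taken for Rps20 has 3706 bases and that for Rps27 has 345. Which part of the Rps20 transcript the reads came from was not tested.

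A further 18 members rose with IFN-γ. Rpl24, a large subunit protein at the bridge between the subunits, had 165, 193 and 177 CPM with IFN-γ and 128, 143 and 123 CPM in controls. The groups did not overlap and the log2 fold change was 0.44 ± 0.10 (adjusted p = 0.00339), called under all alternatives. Of the 50-base stretches of Rpl24, 81.7% occur in transcripts of other genes. Another gene on the same strand shares 47% of its exon bases, so its level is uncertain. Rpl19, Rpl27, Rpl4, Rpl6, Rps23 and Rps7 rose by 0.33 to 0.47 and stayed called without any single library. Each of these 6 lost its call under scaling to library totals (adjusted p = 0.0824 to 0.303). All but Rpl19 also lost it in a fit to the 6 libraries compared (0.0516 to 0.11), where 5 members were higher and 1 lower. Rplp1, a stalk protein that recruits elongation factors, had 396, 708 and 654 CPM with IFN-γ and 280, 335 and 329 CPM in controls (0.90 ± 0.26, adjusted p = 0.0142). It was not called without IFN-γ replicate 2 (adjusted p = 0.0555) or control replicate 1 (0.0558). Rpl27a rose by 0.76 ± 0.26 (adjusted p = 0.0282), with 56.9 CPM in IFN-γ replicate 1 inside the control range of 52.8 to 61.8 CPM. Its call was lost without IFN-γ replicate 2 (0.123), IFN-γ replicate 3 (0.0722), control replicate 1 (0.0805) or control replicate 3 (0.0815). Rpl13a had 470, 579 and 412 CPM with IFN-γ and 346, 387 and 337 CPM in controls (0.45 ± 0.14, adjusted p = 0.0216). That call was lost without IFN-γ replicate 2 (0.1), control replicate 1 (0.0669) or control replicate 3 (0.0739).

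The only members that fell with IFN-γ were Rpl7l1 and Rpl22l1, each a paralog of another member. Rpl7l1, a relative of Rpl7 that acts in assembly of the large subunit, had 92.2, 85.9 and 74.6 CPM with IFN-γ, against 111, 120 and 122 CPM in controls, and fell by 0.48 ± 0.09 on the log2 scale (adjusted p = 0.000989). The groups did not overlap, the call held under all alternatives, and only 9.19% of its 50-base stretches are shared. Rpl22l1, the paralog of Rpl22, had 52.5, 44.3 and 14.5 CPM with IFN-γ, against 75.7, 84.7 and 61.3 CPM in controls (-0.99 ± 0.35, adjusted p = 0.0358). Replicate 3, which stood apart, was far below the other replicates. The call was lost without control replicate 1 (0.0784) or control replicate 2 (0.0981) and in a fit to the 6 libraries alone (0.117). Their partners were not called: Rpl7 had 573, 600.5 and 610 CPM with IFN-γ and 499, 543 and 491 CPM in controls (0.22 ± 0.09, adjusted p = 0.0535), and Rpl22 had a log2 fold change of 0.14 ± 0.09 (adjusted p = 0.219). Rpl7 was called higher by DESeq2 (0.0163), under a filter of 5 CPM (0.045), without heme-albumin 400 µM replicate 2 (0.0322) and without IFN-γ replicate 1 (0.0496). The difference between the members of a pair was not tested.

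**Figure D3:**
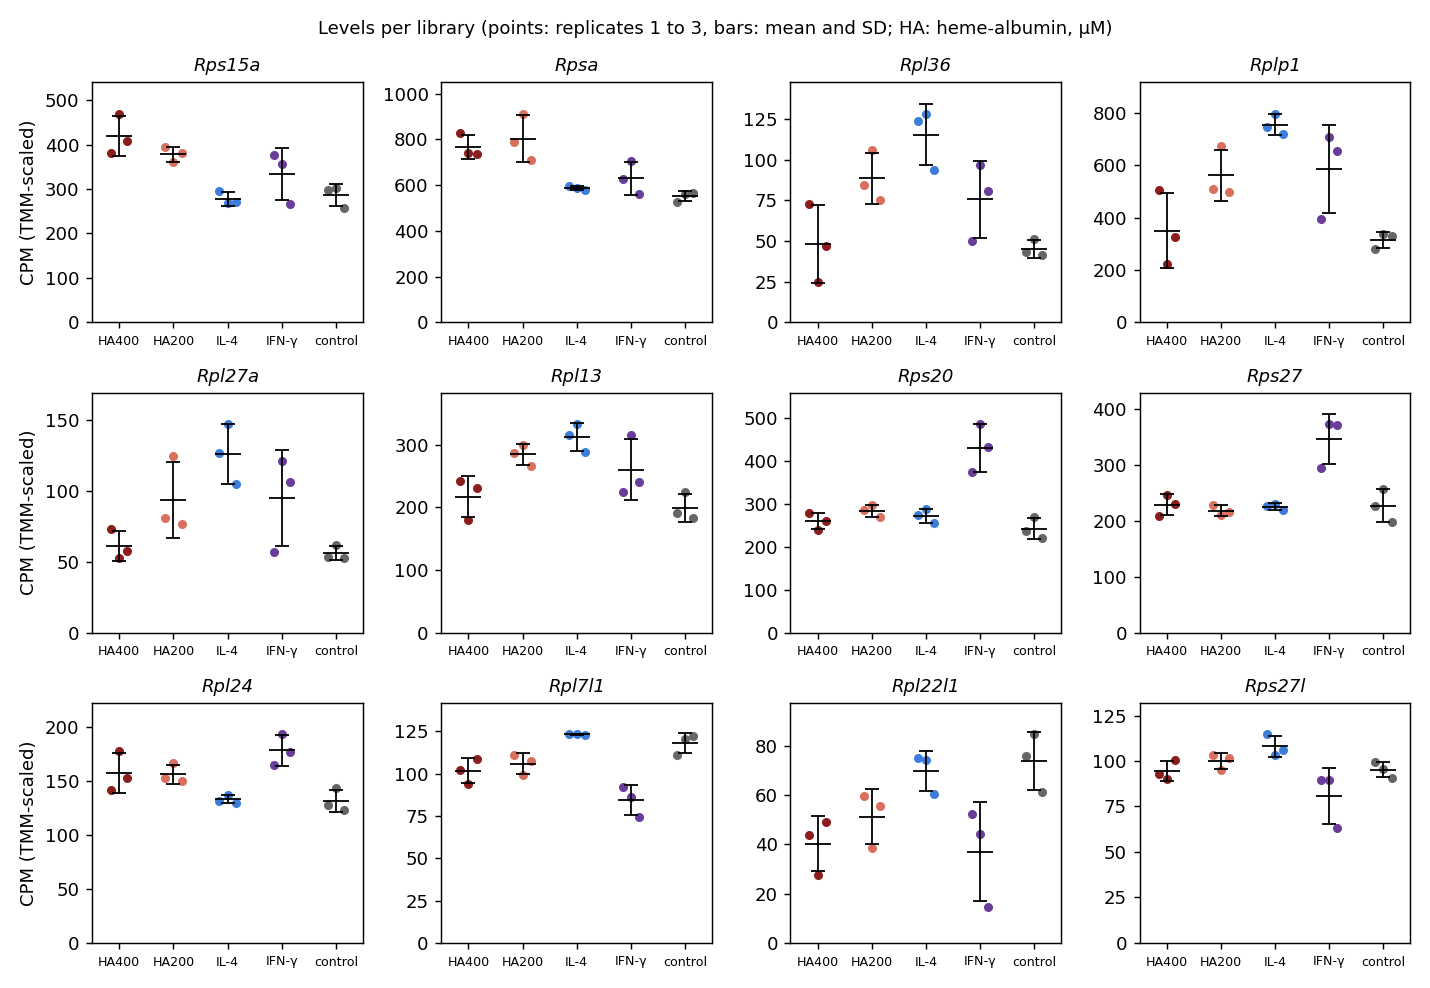
TMM-scaled CPM per library for 12 members, with points for replicates 1 to 3 and bars for mean and SD (HA: heme-albumin, µM; axes start at 0). Rps20 and Rps27 are highest in the 3 IFN-γ libraries and Rpl7l1 is lowest there, the means of Rps15a and Rpsa are highest with heme-albumin, and those of Rpl36, Rplp1, Rpl27a and Rpl13 with IL-4.

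With IL-4 the members with the largest changes were in the large subunit, and 2 of them form its acidic stalk. Rpl36, a small basic protein of the large subunit, had 124, 128 and 93.8 CPM with IL-4 and 43.0, 51.4 and 41.1 CPM in controls (1.35 ± 0.31, adjusted p = 0.00572). Rplp1 had 746, 797 and 718 CPM with IL-4 and 280, 335 and 329 CPM in controls (1.26 ± 0.26, adjusted p = 0.00298). Rpl27a, a core large subunit protein, had 127, 148 and 105 CPM with IL-4 and 53.7, 61.8 and 52.8 CPM in controls (1.17 ± 0.26, adjusted p = 0.00409). In all 3 genes the lowest IL-4 library was well above the highest control. Rpl13, another large subunit protein, had 315, 333 and 288 CPM with IL-4 and 191, 224 and 182 CPM in controls (0.65 ± 0.14, adjusted p = 0.00453). These 4 calls held under all alternatives run. Of their 50-base stretches, 81.1% (Rpl36), 80.3% (Rpl13), 60% (Rplp1) and 35.9% (Rpl27a) occur in transcripts of other genes. No alternative dealt with shared reads, so the levels of Rpl36, Rpl13 and Rplp1 in particular are uncertain.

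Further members rose with IL-4 with less support. Rplp2, the partner of Rplp1 in the stalk, had 276, 294 and 244 CPM with IL-4 and 130, 170 and 133 CPM in controls (0.91 ± 0.23, adjusted p = 0.0107), without overlap. The call was lost only without control replicate 1 among single libraries (0.0501). Rplp0, which anchors the stalk, had 899, 915 and 892 CPM with IL-4 and 703, 775 and 787 CPM in controls and was not called (0.26 ± 0.12, adjusted p = 0.134). Rpl41, among the smallest proteins known, rose by 0.66 ± 0.20 (adjusted p = 0.0225), a call lost without IL-4 replicate 1 (0.0919), control replicate 2 (0.0544) or control replicate 3 (0.0996). Rpl13a had 544, 543 and 518 CPM with IL-4 and 346, 387 and 337 CPM in controls (0.59 ± 0.14, adjusted p = 0.00805), and its call was lost only under scaling to library totals (0.058). The remaining 14 members that rose had log2 fold changes of 0.25 to 0.59, and each lost its call without at least 1 library.

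Heme-albumin at 400 µM raised 4 members, led by the small subunit genes Rps15a and Rpsa. Rps15a, a small subunit protein, had 380, 470 and 408 CPM at 400 µM and 298, 302 and 257 CPM in controls (0.55 ± 0.13, adjusted p = 0.00677). Rpsa, which is also known as the laminin receptor, had 827, 742 and 734 CPM at 400 µM and 528, 561 and 567 CPM in controls (0.48 ± 0.11, adjusted p = 0.00772). In both genes all heme-albumin libraries were above all controls. Both calls held without any single library and were lost under scaling to library totals (adjusted p = 0.0909 and 0.121). Rps2, a core protein of the small subunit, had 505, 476 and 465 CPM at 400 µM and 353, 391 and 368 CPM in controls (0.38 ± 0.10, adjusted p = 0.0151). Its call was lost without control replicate 1 (0.0665) or control replicate 3 (0.0548). Rpl4, a large subunit protein lining the exit tunnel, rose by 0.29 ± 0.09 (adjusted p = 0.0233). Its call was lost without heme-albumin 400 µM replicate 2 (0.0645) or 3 (0.0515) and without any single control (0.0744 to 0.0875).

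At 200 µM Rpsa had 787, 912 and 708 CPM, against 528, 561 and 567 CPM in controls (0.54 ± 0.11, adjusted p = 0.00394). It was the only one of the 17 calls at this dose that held without each single library, and it too was lost under library totals (0.075). Rps15a had 394, 361 and 381 CPM, against 298, 302 and 257 CPM in controls (0.40 ± 0.13, adjusted p = 0.0365), a call lost without any of its own replicates, any control or IL-4 replicate 3 (0.0667 to 0.167). Among called members, the largest changes were those of Rpl36, Rplp1, Rplp2 and Rps21. Rpl36 had 84.2, 106 and 75.2 CPM at 200 µM and 43.0, 51.4 and 41.1 CPM in controls (0.97 ± 0.31, adjusted p = 0.0382). Rplp1 had 510, 675 and 497 CPM and 280, 335 and 329 CPM in those groups (0.83 ± 0.26, adjusted p = 0.0342). Rplp2 changed by 0.75 ± 0.23 (adjusted p = 0.0332), and Rps21, a small subunit protein, by 0.57 ± 0.17 (adjusted p = 0.03). The groups did not overlap in any of these 4 genes, but each call was lost without heme-albumin 200 µM replicate 1 or 2, control replicate 1 or 3 (adjusted p = 0.0533 to 0.143), and in part without others.

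**Figure D4:**
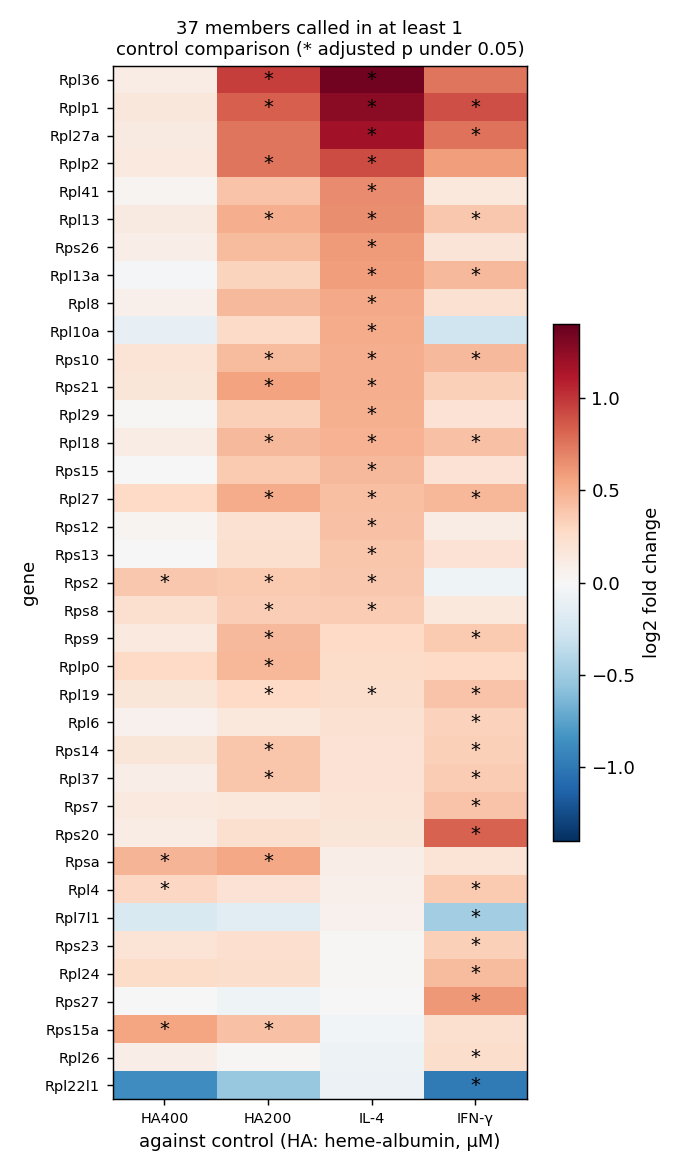
Colour gives the log2 fold change against control of 37 of the 38 members called in at least 1 of the 4 comparisons with control, ordered by the IL-4 column, and stars mark adjusted p under 0.05 (HA: heme-albumin, µM). Rpl36, Rplp1 and Rpl27a lead with IL-4 (1.35, 1.26 and 1.17), Rps20 and Rps27 are starred with IFN-γ alone, and Rpl7l1 and Rpl22l1 are the starred falls.

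Between the heme-albumin doses, no member was called (400 against 200 µM), and 0 of all 11883 genes were (percent called 0), in edgeR's test. At an unadjusted p under 0.05 there were 17 members. The share of all genes at that threshold is not given here, so this count is not read as particular to members. Members lay lower at 400 µM by a median of 0.12 (log2). Rpl36 had 72.8, 25.1 and 47.2 CPM at 400 µM and 84.2, 106 and 75.2 CPM at 200 µM (-0.87 ± 0.31, adjusted p = 0.297). The lowest of these values belongs to replicate 2, which stood apart. Rps29 had 394, 209 and 317 CPM at 400 µM and 469, 471 and 436 CPM at 200 µM (-0.58 ± 0.20, adjusted p = 0.292). In both genes every 400 µM library was below every 200 µM library. Over members, Spearman's rho between this log2 fold change and transcript GC content was -0.54, and over 11696 tested genes it was -0.56. The part of base composition here was not tested.

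Against IL-4, 4 members were higher and 18 lower with heme-albumin at 400 µM, where 20.5% of all tested genes were higher and 19.7% lower. The share of members lower, 21.4%, was close to that of all genes, and the share higher, 4.76%, was below it. Rps15a had 380, 470 and 408 CPM with heme-albumin at 400 µM and 296, 268 and 270 CPM with IL-4 (0.59 ± 0.13, adjusted p = 0.00248). Rpl36, Rplp1 and Rpl27a were lower by 1.25 ± 0.31, 1.11 ± 0.26 and 1.05 ± 0.26 (log2 fold changes of -1.25, -1.11 and -1.05, adjusted p = 0.0061, 0.00442 and 0.00541). Rps29, a small zinc-binding protein of the small subunit, had 394, 209 and 317 CPM with heme-albumin and 508, 541 and 477 CPM with IL-4 (-0.73 ± 0.20, adjusted p = 0.00956). Together with Rpl10a, Rpl13, Rpl13a and Rpl29, these were the 9 calls that held under all alternatives run. Rpsa (0.39 ± 0.11, adjusted p = 0.0147) was not called without heme-albumin 400 µM replicate 1 (0.0501), Rps27a (0.36 ± 0.11, adjusted p = 0.0162) not without heme-albumin 400 µM replicate 2 (0.068) or IL-4 replicate 2 (0.0535), and Rplp2 (-0.77 ± 0.23, adjusted p = 0.0173) not without heme-albumin 400 µM replicate 2 (0.0657) or IL-4 replicate 2 (0.0562). Rpl9 (0.32 ± 0.10, adjusted p = 0.0216) was not called without heme-albumin 400 µM replicate 2 (0.0829), IL-4 replicate 1 (0.0504) or IL-4 replicate 3 (0.0677). Without heme-albumin 400 µM replicate 2 the counts were 2 higher and 8 lower, without IL-4 replicate 1 the lower count was 11 and without IL-4 replicate 2 it was 10, and without heme-albumin 400 µM replicate 1 the higher count was 8. Library totals gave 1 higher and 19 lower, and upper-quartile scaling 6 and 13.

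Against IFN-γ, 3 members were higher and 8 lower with heme-albumin at 400 µM (all genes 20.6% higher and 22.3% lower), below the share of all genes in both directions. Rps20 had 278, 239 and 260 CPM with heme-albumin and 373, 485 and 431 CPM with IFN-γ (-0.73 ± 0.11, adjusted p = 0.000154). Rps27 had 208, 246 and 231 CPM with heme-albumin and 293, 373 and 371 CPM with IFN-γ (-0.60 ± 0.12, adjusted p = 0.00097). These calls held under all alternatives run. Rps2 was higher with heme-albumin (0.44 ± 0.10, adjusted p = 0.00359) and Rps29 lower (-0.73 ± 0.20, adjusted p = 0.00885), and both held without any single library but not in a fit to the 6 libraries alone (0.0813 and 0.0933). Rps29 overlapped between the groups and was not called without both libraries that stood apart (0.0506). Rps27a (0.33 ± 0.11, adjusted p = 0.0245) lost its call without heme-albumin 400 µM replicate 2 (0.0933) or IFN-γ replicate 3 (0.0622), and Rpl7l1 (0.27 ± 0.09, adjusted p = 0.0296) without heme-albumin 400 µM replicate 1 (0.061) or 3 (0.118) or IFN-γ replicate 2 (0.0525) or 3 (0.115). Rplp1, called lower, overlapped between the groups and lost its call without heme-albumin 400 µM replicate 2 (0.12) or 3 (0.0992) or IFN-γ replicate 2 (0.122) or 3 (0.0809), and with a block on the replicate number (0.0547). Upper-quartile scaling turned the counts to 9 higher and 3 lower, with the median log2 fold change of all genes at 0.11 (-0.01 under TMM). Blocking on the replicate number gave 7 higher and 9 lower. Without heme-albumin 400 µM replicate 2 or 3 the lower count was 5 or 3, and without IFN-γ replicate 1 or 2 it was 13 or 3. The higher count was 5 without IFN-γ replicate 2 and 1 without IFN-γ replicate 3.

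Several members also have roles outside the ribosome. Rpl11 had 337, 301 and 348 CPM with heme-albumin at 400 µM and 337, 383 and 325 CPM with IFN-γ, against 328, 351 and 345 CPM in controls, and was not called in any of the 7 comparisons. Rpl5 was not called either, with log2 fold changes against control of -0.07 to 0.20, although it was called higher with IFN-γ without both libraries that stood apart (adjusted p = 0.0394). Mdm2, the p53 inhibitor both proteins bind, had 318, 392 and 339 CPM with heme-albumin at 400 µM, 251, 290 and 253 CPM at 200 µM and 348, 341 and 434 CPM with IFN-γ, against 172, 170 and 185 CPM in controls. It rose by 0.99 ± 0.13, 0.59 ± 0.13 and 1.09 ± 0.13 in those 3 comparisons (adjusted p = 0.000126, 0.0054 and 2.63e-05). Rps27l, a paralog of Rps27 known as a p53 target, was not called there, with 93.0, 90.0 and 101 CPM at 400 µM and 89.8, 89.8 and 63.1 CPM with IFN-γ, against 99.3, 95.6 and 90.9 CPM in controls. Its change with IFN-γ of -0.24 ± 0.12 (adjusted p = 0.122) was called under upper-quartile scaling (0.0394) and under library totals (0.0416). Rps3, which also acts in DNA repair, Rps6, the target of the S6 kinases, and Rps19, mutated in Diamond-Blackfan anaemia in humans, were called in none of the 7 comparisons, but Rps3 was called higher at 200 µM (0.0374) and with IFN-γ (0.0269) without both libraries that stood apart. Rps27a, made as a fusion to ubiquitin, was not called against control (-0.24 to 0.12). It was called lower with IL-4 under library totals (0.0301), in a fit to the 6 libraries compared (0.0399) and without both libraries that stood apart (0.0359). With IFN-γ it was called lower under library totals (0.0115) and under upper-quartile scaling (0.04).

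Among the other paralogs, Rpl39l and Rps27rt had low levels. Rpl39l, known from testis, had at most 1.51 CPM in any library, and Rpl39 had 133, 186.5 and 137 CPM at 400 µM and 118, 138 and 106 CPM in controls (0.33 ± 0.14, adjusted p = 0.0918, or 0.0494 with a block on the replicate number). Rps27rt had at most 6.13 CPM in any library, and 91.1% of its 50-base stretches are shared with other genes. Rpl36al had 66.2, 55.4 and 65.2 CPM at 400 µM, 75, 68.5 and 76.1 CPM at 200 µM and 60.2, 59.5 and 42.0 CPM with IFN-γ, against 60.8, 61.0 and 55.3 CPM in controls. The 200 µM libraries were all above the controls, but the change of 0.31 ± 0.13 was not called (adjusted p = 0.108). It was called in a fit to those 6 libraries (0.0183), without IFN-γ replicate 3 (0.0277) and without both libraries that stood apart (0.0114). Rpl36a, its partner, was not called in any comparison, but with a block on the replicate number it was higher at 400 µM than with IFN-γ (0.30, adjusted p = 0.0415), as it was under upper-quartile scaling (0.0278) and without IFN-γ replicate 2 (0.032). Rpl39l was lower at 400 µM than with IFN-γ under the block (adjusted p = 0.013). Rpl22l1 had 43.8, 27.7 and 49.1 CPM at 400 µM, against 75.7, 84.7 and 61.3 CPM in controls. The groups did not overlap, but the change of -0.87 ± 0.36 was not called (adjusted p = 0.0884). It was called by DESeq2 (0.0489), without IFN-γ replicate 3 (0.00577), in a fit to the 6 libraries compared (0.0146) and without both libraries that stood apart (0.0186). At 200 µM its change of -0.53 ± 0.35 was not called (adjusted p = 0.297). It was called there in a fit to the 6 libraries compared (0.0263) and without both libraries that stood apart (0.0226).

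Fau and Rack1 encode further ribosomal proteins under other names. Fau had 239, 421 and 408 CPM with IFN-γ and 191, 228 and 200 CPM in controls (0.79 ± 0.22, adjusted p = 0.0101). Rack1 rose with IFN-γ by 0.27 ± 0.10 (adjusted p = 0.0497). Neither was called at 400 µM against control. With IL-4, Fau changed by 0.56 ± 0.21 and Rack1 by 0.23 ± 0.10, also not called (adjusted p = 0.0715 and 0.126). At 200 µM the values were 0.51 ± 0.21 and 0.24 ± 0.10 (0.105 and 0.116). In a fit to the 6 libraries compared, Fau was called higher with IL-4 (0.00104) and at 200 µM (0.00219), and Rack1 with IL-4 (0.0308). Rack1 was called at 200 µM without both libraries that stood apart (0.0345).

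For genes that build and serve the ribosome, counts are read against the share of all tested genes called higher and lower: 24.1% and 19.5% with IFN-γ, 14.9% and 12.0% with IL-4, 14.0% and 9.48% at 200 µM, 14.7% and 10.8% at 400 µM, and 20.6% and 22.3% for 400 µM against IFN-γ. Of 46 tested ribosome biogenesis factors, 2 rose and 19 fell with IFN-γ (median log2 fold change -0.28, all genes 0.05), while 9 rose and 0 fell with IL-4 (median 0.19, all genes 0.00). Nop16, a nucleolar assembly factor, had 18, 18.1 and 13.7 CPM with IFN-γ and 27.1, 28.3 and 26.9 CPM in controls (-0.72 ± 0.12, adjusted p = 0.000275), and 41.9, 37.8 and 37.4 CPM with IL-4 (0.51 ± 0.11, adjusted p = 0.00474). Rrs1, a regulator of ribosome synthesis, had 55.0, 47.6 and 47.4 CPM with IL-4 and 27.1, 24.0 and 24.7 CPM in controls (0.98 ± 0.12, adjusted p = 5.1e-05). At 400 µM 6 of the factors rose and 1 fell (median 0.13), and at 200 µM 4 rose and 0 fell (median 0.06). Against IFN-γ, 24 of the 46 were higher and 1 lower at 400 µM (median 0.40). Values for these factors and for the lists in the next paragraph are from the main fit only. Other scalings and left-out libraries were not looked at for them.

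Against those same shares of all genes, of 19 tested translation genes with TOP mRNAs outside the ribosome, 7 rose and 3 fell with IFN-γ (median 0.06), 2 rose and 1 fell with IL-4 (median 0.05), 2 rose at 200 µM and 1 at 400 µM. Eef2, the elongation factor that moves the ribosome along the mRNA, had 2000, 2461 and 2279 CPM with IFN-γ and 1230, 1469 and 1447 CPM in controls (0.70 ± 0.13, adjusted p = 0.000947). Pabpc1, the poly(A)-binding protein, rose by 0.73 ± 0.12 (adjusted p = 0.000246). Of 28 initiation factors, 4 rose and 8 fell with IFN-γ (median -0.13), 3 rose and 0 fell with IL-4 (0.10), and 5 and 3 rose at 200 and 400 µM with 0 falling. Eif4a1, the helicase of the cap complex, had 747, 614 and 551 CPM with IFN-γ and 980, 906 and 964 CPM in controls (-0.58 ± 0.12, adjusted p = 0.00153). Larp1, the TOP regulator, had 259, 192 and 246 CPM with IFN-γ and 161, 129 and 154 CPM in controls (0.65 ± 0.12, adjusted p = 0.00086). Of 26 mTORC1 and TOP regulators, 7 rose and 3 fell with IFN-γ, 4 rose and 0 fell with IL-4, 4 and 6 did so at 200 µM, and 0 and 5 at 400 µM. Of 78 mitochondrial ribosomal proteins, which serve a separate ribosome, 17 rose and 1 fell with IL-4 (median 0.11), 10 and 1 at 200 µM (0.10), 4 and 4 at 400 µM (0.00) and 5 and 7 with IFN-γ (0.03). RNA polymerase I genes (12 tested), ribosomal stress genes (11) and ribosome quality control genes (16) had at most 3 calls in a direction in any comparison with control.

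Over the 84 members, Spearman's rho between GC content and the log2 fold change was 0.64 with IL-4, 0.53 at 200 µM, 0.20 with IFN-γ and 0.02 at 400 µM, where the points share the same libraries and controls. Over 11696 tested genes it was 0.29, 0.29, 0.06 and -0.05. The 21 members of highest GC (54.6% to 60.8%) held 13 of the 21 rises with IL-4 and 12 of the 17 at 200 µM, and the 21 of lowest GC (40.6% to 48.3%) held 0 and 2. The high-GC members had a median log2 fold change of 0.38 with IL-4 and 0.39 at 200 µM, and the low-GC members 0.02 and 0.05. By library, the high-GC median was 0.31, -0.22 and 0.09 in heme-albumin 400 µM replicates 1 to 3, so replicate 2 went against the others. Rps20 (41.3% GC), Rps15a (45.3%) and Rpl7l1 (49.2%) are not among the members of highest GC, nor is Rpl27a (48.5%), while Rpl36 (60.8%), Rplp1 (57.3%) and Rpsa (56.4%) are. GC is that of a single annotated transcript per gene, with 3706 bases for Rps20, 5130 for Rps15a and 383 for Rpl36. The part of base composition in these results was not tested.

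**Figure D5:**
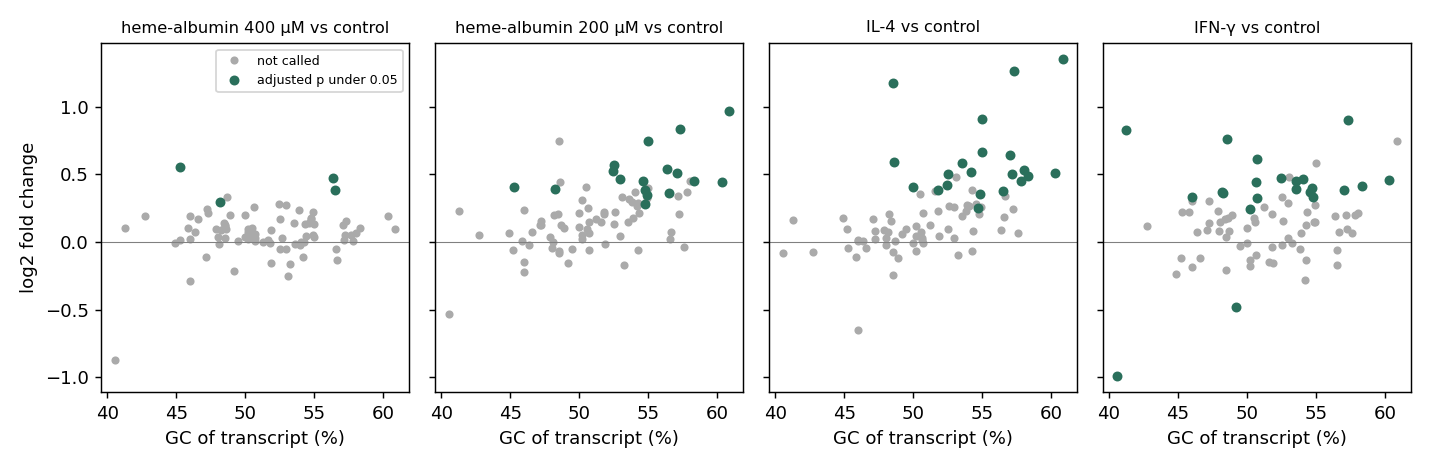
Each panel plots the log2 fold change against control (y axis) over the GC content of the annotated transcript (x axis, percent) for 83 members (without Rpl39l), with called members in green. The points climb to the right with IL-4 (rho 0.64) and at heme-albumin 200 µM (rho 0.53) and lie flat at 400 µM (rho 0.02), rho being over all 84 members.

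Replicate spread differed between members. The SD of log2 CPM within groups was 0.45 for Rpl36, 0.36 for Rplp1, 0.35 for Rpl27a, 0.32 for Rplp2 and 0.53 for Rpl22l1, against 0.13 for Rps20, 0.10 for Rpl7l1 and 0.05 for Rpl4. In 50 members at least 50% of 50-base stretches occur in transcripts of other genes, and 39 members share exon bases with another gene. The part of shared reads in the levels was not tested. With IL-4, 7 of the 34 members under 50% and 14 of the 50 others rose, and with IFN-γ, 7 and 13 did.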

How the data were processed

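The authors deposited raw counts per gene in 1 table of 15 libraries, made from stranded TruSeq libraries, per the labels. Per the submitters' processing notes, the tools were STAR 2.7.0e, SAMtools 1.9 and featureCounts, on GRCm38.p5. The featureCounts version, annotation, strand setting and treatment of multi-mapped reads are not stated in those sources, so members that overlap a gene or share sequence with copies are uncertain. Symbols came from GENCODE M21 (25664 of 25700 identifiers matched). For the higher dose the titles' 400 µM was used, since its treatment tags differ slightly between replicates.

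Genes were filtered with filterByExpr (11883 left), scaled by TMM (factors 0.886 to 1.12) and tested with edgeR 4.0.16 in R 4.3.3, by quasi-likelihood in 1 model of group means over all 15 libraries and 7 comparisons, with Benjamini-Hochberg adjustment over all tested genes and a threshold of 0.05. CPM are TMM-scaled. Shares of counts had exact permutation tests. The fit was run on simulated counts with known changes, drawn without replicate effects or libraries that stand apart. That run checks the code only, not how the fit does on these data. The text names, in each comparison, called members with the 5 greatest changes either way, paralog pairs, members with second roles, and members whose calls held without each library; for other lists, up to 4 genes of smallest p. Members, lists and rules were chosen with earlier results of these data known. Alternatives were DESeq2 1.42.0, other scalings, filters, only the 6 libraries compared, a replicate block and leaving out each library. The column names carry 3 dates, 1 per replicate number, so the numbers may pair the samples. What the dates mark is not stated. The main model and the main share tests leave the replicate number out, and the replicate block and the sign-flip tests take it in. In a check, 30 same-number pairs of libraries from different groups had a median correlation of deviations from group means of 0.144 (-0.168 to 0.474). The median for 60 other pairs was -0.0688. For 14 of 15 libraries, the mean correlation with libraries of other groups was highest for their own number. Deviations sum to 0 within a group, so the values of same-number and other pairs are not independent. Plots: matplotlib 3.10.9, Python 3.11.15. Results of a few genes are not reported here.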

Additional observations from a re-analysis of the deposited data

How the results depend on the processing

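Leaving out single libraries gave 2 to 5 members higher and 0 to 1 lower for heme-albumin 400 µM against control, 2 to 24 and 0 for 200 µM, 6 to 24 and 0 for IL-4, 9 to 27 and 1 to 2 for IFN-γ, 0 and 0 between the doses, 2 to 8 and 8 to 20 for 400 µM against IL-4, and 1 to 5 and 3 to 13 against IFN-γ. Differences in the members' share of counts ran from -0.29 to -0.07, -0.07 to 0.08, 0.11 to 0.26 and -0.20 to 0.24 percentage points against control for 400 µM, 200 µM, IL-4 and IFN-γ, and from -0.29 to -0.07 between the doses. Without the 10 most abundant genes in the total, the difference of 200 µM from control was 0.23 percentage points.

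Library totals gave 0 higher and 1 lower for either heme-albumin dose, 5 and 1 for IL-4, 4 and 6 for IFN-γ, and 1 higher against IL-4. Upper-quartile factors gave 9 and 5 with IFN-γ and, for 400 µM against IFN-γ, 9 and 3. Only the 6 libraries compared gave 1 lower at 400 µM, 32 and 1 at 200 µM, 1 lower with IL-4, 5 and 1 with IFN-γ, and 0 and 2 against IFN-γ. Without both libraries that stood apart, an alternative added after the data were seen, there were 1 lower at 400 µM, 35 and 1 at 200 µM, 1 lower with IL-4, 33 higher with IFN-γ, and 11 lower against IL-4. DESeq2 gave 1 lower at 400 µM, 7 higher against IL-4 and 5 higher against IFN-γ. A filter of 5 CPM in 3 libraries also gave 5 higher against IFN-γ. The replicate block gave 7 higher against IFN-γ and moved no other count by over 1.5 times. With that block the calls of Rps9 with IFN-γ (adjusted p = 0.0506), Rps21 (0.0502) and Rpl19 (0.0505) with IL-4, Rpl18 against IL-4 (0.0627) and Rplp1 against IFN-γ (0.0547) were lost. The cause of these shifts was not tested. Shares of all genes called under these alternatives are not given here, so the shifts are not read as particular to members.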
